A study of Mus musculus with 22 samples.

Results

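Nr4a1, Nr4a2 and Nr4a3, the members of the Nr4a family of orphan nuclear receptors, were followed by RNA-seq and ATAC-seq in conventional dendritic cells (cDCs) of the mouse. The members were taken by gene symbol, which gave 3 of the 34047 genes in the RNA table, and all 3 passed the filter on low counts in every fit. At their loci, 21 of 177956 accessible windows had a family member as the closest gene. The cells came from naive Tbx21RFP-cre mice of 6 to 10 weeks, males and females, all homozygous for a knock-in allele in which red fluorescent protein (RFP) and Cre report the gene of the transcription factor T-bet, so the comparison cells carried the same allele. Cells negative for lineage markers, CD64 and Ly6C and positive for CD11c and MHC class II were sorted after enzymatic digestion of the tissue at 37 °C, as XCR1+ cDC1s, RFP- cDC2s (T-bet- cDC2s) and RFP+ cDC2s (T-bet+ cDC2s). Each RNA library held the pooled cells of 2 mice. The ATAC libraries are labelled as pooled spleen, with the number of mice not given in the sources used here. RNA-seq covered 3 libraries of each subset from spleen, and from mesenteric lymph node (MLN) 3 of cDC1s and 2 for either cDC2 subset. ATAC-seq covered 2 libraries of each subset from spleen. RFP stands for T-bet in the sort, and the spread between libraries is that between such pools.

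Nr4a receptors have a nuclear receptor fold whose ligand pocket is filled by bulky side chains, so their activity is set largely by how much receptor is made. Their genes are immediate early genes: calcium, cyclic AMP and kinase signals raise transcription within minutes through CREB, MEF2 and related factors bound near the start site. As monomers the receptors bind an extended response element, AAAGGTCA, and Nr4a1 and Nr4a2 can also pair with retinoid X receptors. In lymphocytes Nr4a1 is widely used as a readout of antigen receptor signalling, in monocytes it is needed for the Ly6C-low population, and Nr4a3 has been linked to the migration of dendritic cells through Ccr7.

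The promoter sequences are shown because the family is induced through cyclic AMP, and CREB binds the letters TGACG on either strand (CGTCA when read on the other strand). The sequences are those of RefSeq on GRCm38.p6, 250 bases before the start site, written 5′ to 3′ on the strand of the gene, with TGACG or CGTCA in capitals. Nr4a1 (ENSMUSG00000023034) lies on the plus strand at chr15:101254269-101274795, and its promoter window at chr15:101266596-101266845 falls in an intron of a longer transcript that starts upstream. Nr4a2 (ENSMUSG00000026826) lies on the minus strand at chr2:57106830-57124003, with its promoter window at chr2:57124004-57124253. Nr4a3 (ENSMUSG00000028341) lies on the plus strand at chr4:48045153-48086447. Its promoter window is chr4:48045055-48045304, of which the 98 bases before the first annotated exon are printed, chr4:48045055-48045152.
Nr4a1: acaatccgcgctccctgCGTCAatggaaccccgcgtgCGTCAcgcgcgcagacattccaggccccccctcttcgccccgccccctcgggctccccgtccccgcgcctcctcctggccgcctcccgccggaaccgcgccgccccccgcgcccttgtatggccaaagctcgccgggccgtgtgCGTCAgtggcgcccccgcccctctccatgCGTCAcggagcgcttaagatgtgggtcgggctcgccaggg
Nr4a2: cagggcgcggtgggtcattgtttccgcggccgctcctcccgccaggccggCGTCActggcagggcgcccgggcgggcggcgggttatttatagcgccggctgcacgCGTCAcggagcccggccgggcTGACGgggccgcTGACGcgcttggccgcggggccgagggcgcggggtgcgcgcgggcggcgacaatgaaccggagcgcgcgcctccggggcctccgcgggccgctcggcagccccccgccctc
Nr4a3: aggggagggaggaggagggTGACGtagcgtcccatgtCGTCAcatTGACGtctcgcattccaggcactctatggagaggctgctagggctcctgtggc

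Each of the 3 promoter windows held 4 copies of TGACG on either strand, 1 of those of Nr4a3 lying past the bases printed. Of 32851 promoter windows of the same length, 17.8% held at least 1 copy and 0.137% held at least 4. Among the 9178 windows with at least 60% G and C, 0.37% held at least 4. Counted from the start site to the base nearest the 5′ end of the gene's strand, the copies began at positions -233, -213, -69 and -40 in Nr4a1, at -200, -144, -123 and -111 in Nr4a2 and at -231, -213, -205 and -147 in Nr4a3. The full element TGACGTCA, found in 1.55% of promoter windows, was in none of the 3. The Sp1 box GGGCGG, found in 32.7% of promoter windows, occurred 3 times in Nr4a1, 4 times in Nr4a2 and 1 time in Nr4a3. A MEF2 motif (2.92% of promoter windows) was found 1 time in Nr4a2, where it overlapped the letters TATAAA (12.4%), and in neither of the others. The receptors' own element AAAGGTCA (1.34%), the T-box motif AGGTGTGA (1.12%) and the Runx motif TGTGGTT (4.4%) were not found in these windows.

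Reads counted on genes were 20993220 to 29006549 per RNA library, and ATAC reads in windows were 7270164 to 10081555 per library. The sorted subsets carried their defining markers in spleen. Tbx21, the T-bet gene, was at 17.2 to 24.9 CPM, the share of the library on that gene scaled to a fixed total, in T-bet+ cDC2s and at 0.29 to 2.38 in T-bet- cDC2s. The summed level of 6 cDC1 markers was 4944 to 6100 CPM in cDC1s, 229 to 590 in T-bet- cDC2s and 146 to 240 in T-bet+ cDC2s, and that of 5 cDC2 markers was 13.5 to 16.4, 2009 to 2929 and 1251 to 1511 CPM in the same order. In MLN Tbx21 was at 2.93 to 7.19 CPM in T-bet+ and 0.54 to 0.92 in T-bet- cDC2s. The spleen libraries also fell into 2 classes that the subsets do not explain, by how far genes with GC-rich transcripts lay above or below their average in a library. The higher class (Spearman's rho 0.222 to 0.352 across 7781 genes) held the 3 T-bet+ libraries, T-bet- replicate 3 and cDC1 replicates 1 and 2. The lower class of the spleen (rho -0.422 to -0.201) held T-bet- replicates 1 and 2 and cDC1 replicate 3. All 7 MLN libraries were in the lower class (rho -0.328 to 0.0441). With subset in the fit, 13.2% of 14377 genes differed between the spleen classes. The class was drawn from these same counts, so p-values between classes describe the split and are no independent test. The spleen results are therefore also given with the class as a term in the fit. No T-bet+ spleen library was in the lower class, so in spleen this term takes its effect from T-bet- cDC2s and cDC1s. As a split made after seeing the data, the spleen results are also given from the 6 libraries of the higher class alone. That split holds 1 T-bet- library, whose spread is assumed to be that of the other subsets, so its values are given without a p.

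Per length of transcript, Nr4a1 was the family member with the highest level in every library. On the RPKM scale, which is CPM per kilobase of exon, it made up 73.8% to 95.6% of the sum of the 3 genes, with a median of 90.7% over the 16 RNA libraries. Its RPKM was 3.52 to 50.0 times that of Nr4a2 and 13.6 to 66.3 times that of Nr4a3. In spleen T-bet+ cDC2s Nr4a1 was 5.03 to 9.40 times Nr4a2, in T-bet- cDC2s 11.0 to 50.0 times and in cDC1s 3.52 to 15.4 times. The ranges of T-bet+ and T-bet- cDC2s did not overlap, but this ratio also followed the GC class. It was 50.0, 39.4 and 15.4 in the lower class (T-bet- replicates 1 and 2 and cDC1 replicate 3). In the higher class it was 3.52 to 11.0, with T-bet- replicate 3 the highest. Nr4a2 exceeded Nr4a3 on this scale in 14 of the 16 libraries. The median transcript level of Nr4a1 in CPM was 3929 over the 9 spleen libraries and 1337 over the 7 MLN libraries.

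**Figure D1:**
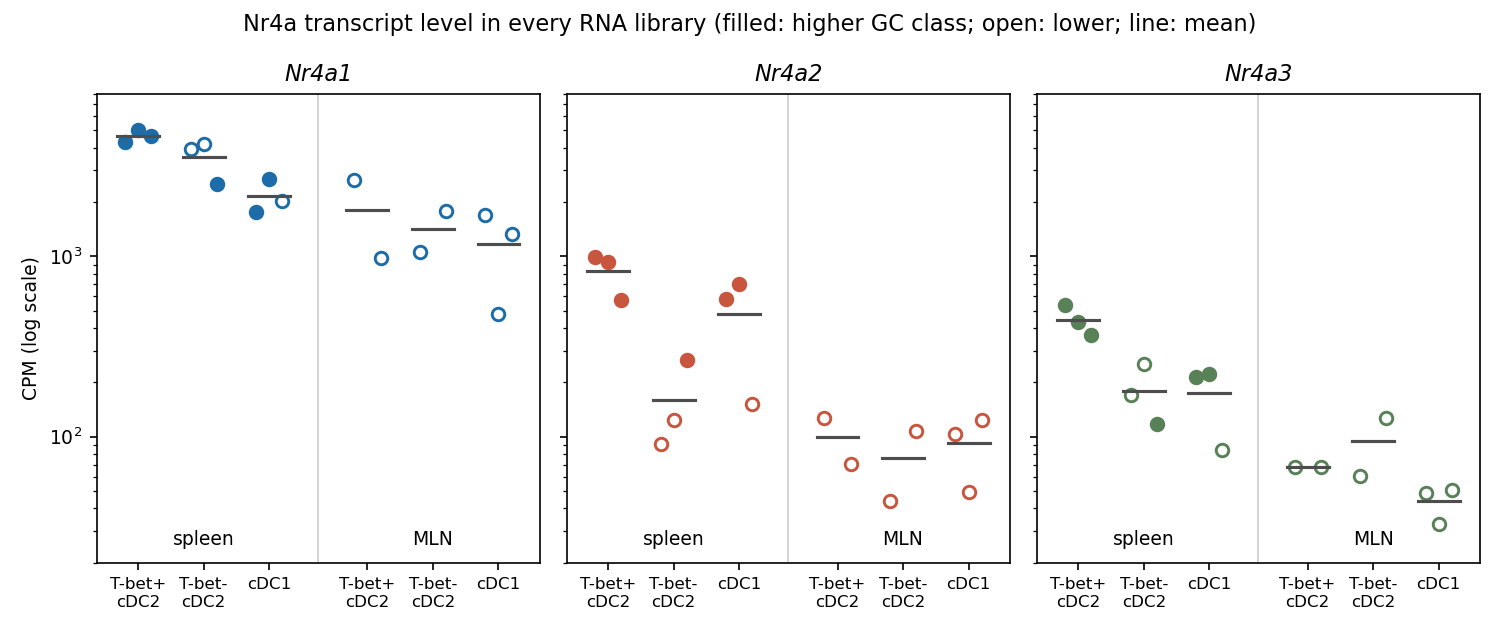
Level of Nr4a1, Nr4a2 and Nr4a3 in each of the 16 RNA libraries, in CPM after TMM normalization on a log scale, by tissue and subset. Each point is 1 library, filled for the higher GC class and open for the lower, and lines are means. Spleen T-bet+ cDC2s lie above all MLN libraries for each gene, and Nr4a2 in spleen follows the GC class as well as the subset.

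Nr4a1 in spleen was highest in T-bet+ cDC2s, where its level was 4291, 5050 and 4630 CPM in replicates 1 to 3. It was 3929, 4223 and 2517 CPM in T-bet- cDC2s. In cDC1s it was 1771, 2680 and 2019 CPM. Every T-bet+ library lay above every other spleen library, and T-bet- replicate 3 lay below the highest cDC1 library. The means were 4657 ± 380, 3556 ± 912 and 2156 ± 470 CPM (SD, n = 3 each). By edgeR's quasi-likelihood test with Benjamini-Hochberg adjustment, Nr4a1 was 2.16-fold higher in T-bet+ cDC2s, relative to cDC1s (log2 fold change 1.11, SE 0.23, adjusted p = 0.0079), a comparison in which 18.2% of 14377 genes passed. This call was kept in all 9 fits that each left out a library, and with the library class as a term (adjusted p = 0.00263), and the difference was 1.07 in the higher class alone. The differences between T-bet+ and T-bet- cDC2s (0.39, SE 0.23, adjusted p = 0.401) and between T-bet- cDC2s and cDC1s (0.72, SE 0.23, adjusted p = 0.0595) did not pass in edgeR's test. In those comparisons 5.38% and 15.9% of genes passed. Neither was stable in size. The first ran from 0.11 without T-bet- replicate 3 to 0.55 without T-bet- replicate 2, and was 0.60 with the class as a term (adjusted p = 0.305) and 0.88 in the higher class alone. The last passed without T-bet- replicate 3 (0.88, adjusted p = 0.0198) or cDC1 replicate 2 (0.91, adjusted p = 0.0455), and was 0.59 with the class as a term (adjusted p = 0.105) and 0.19 in the higher class alone. Fewer cells with a transcript and less of it per cell cannot be told apart in these bulk libraries.

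Nr4a2 had the widest range of the family. Its level was 987, 930 and 570 CPM in spleen T-bet+ cDC2s, replicates 1 to 3. It was 90.9, 124 and 265 CPM in T-bet- cDC2s, below every T-bet+ library. In cDC1s it was 581, 699 and 151 CPM, so replicate 3 lay among the T-bet- cDC2s and the other two among the T-bet+ cDC2s. In edgeR's test Nr4a2 was 5.18-fold above its T-bet- level in T-bet+ cDC2s (log2 fold change 2.37, SE 0.58, adjusted p = 0.0448), 1 of 3 members called where 1.95% of all genes were called higher and 3.44% lower. It did not pass against cDC1s in T-bet+ cDC2s (0.80, SE 0.55, adjusted p = 0.379) or in T-bet- cDC2s (-1.57, SE 0.56, adjusted p = 0.0937). The call between the cDC2 subsets was near the threshold: it was kept without T-bet- replicate 3 and without cDC1 replicate 3 and lost when T-bet- replicate 1 or 2, any T-bet+ library or cDC1 replicate 1 or 2 was left out. The adjusted p in those 7 fits was 0.0582 to 0.147 and the log2 fold change 2.09 to 2.58.

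The Nr4a2 level also moved with the GC class of the library. The 6 spleen libraries of the higher class were at 265 to 987 CPM and the 3 of the lower class at 90.9 to 151 CPM, with no overlap. With subset in the fit, Nr4a2 was lower in the lower class (log2 fold change -1.69, SE 0.29, adjusted p = 0.00241), while Nr4a1 (0.28, adjusted p = 0.53) and Nr4a3 (-0.25, adjusted p = 0.787) did not pass. As the class was drawn from the same counts, these values describe the split and are no independent test. With the class as a term, T-bet+ cDC2s still exceeded T-bet- cDC2s in Nr4a2 by 1.38 on the log2 scale (adjusted p = 0.0446). In the higher class alone, with T-bet- replicate 3 the only library of its subset, the difference was 1.64. Both are smaller than the 2.37 of the fit without the class. Every spleen T-bet+ library was in the higher class. The fit with the class thus takes the class effect from T-bet- cDC2s and cDC1s and assumes it for T-bet+ cDC2s. The difference between T-bet- cDC2s and cDC1s was -0.88 with the class as a term (adjusted p = 0.0539) and -1.26 in the higher class alone, and that between T-bet+ cDC2s and cDC1s was 0.50 (adjusted p = 0.215) and 0.37.

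Nr4a3 was at 540, 430 and 366 CPM in spleen T-bet+ cDC2s. It was at 171, 252 and 117 CPM in T-bet- cDC2s and at 215, 222 and 84.3 CPM in cDC1s. The T-bet+ libraries lay above all 6 others, and the T-bet- cDC2s and cDC1s overlapped. The means were 446 ± 88.0, 180 ± 67.8 and 174 ± 77.5 CPM (SD, n = 3 each). In edgeR's test Nr4a3 was 2.57-fold higher in T-bet+ cDC2s, relative to cDC1s (log2 fold change 1.36, SE 0.40, adjusted p = 0.0400). This call was kept without T-bet- replicate 2 or 3 and lost, at an adjusted p of 0.0536 to 0.132, when any of the other 7 libraries was left out. The difference from T-bet- cDC2s was 1.31 (SE 0.39, adjusted p = 0.099) and that between T-bet- cDC2s and cDC1s 0.06 (SE 0.39, adjusted p = 0.946). The first of these passed without cDC1 replicate 3 (1.31, adjusted p = 0.0338) and did not with the class as a term (1.11, adjusted p = 0.378). In the higher class alone it was 1.92, and the difference between T-bet- cDC2s and cDC1s turned to -0.89. The difference between T-bet+ cDC2s and cDC1s was 1.32 with the class as a term (adjusted p = 0.0327) and 1.03 in the higher class alone.

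In MLN the mean level of each member was lower than in spleen, at 1422 CPM for Nr4a1, 89.4 CPM for Nr4a2 and 65.2 CPM for Nr4a3 over the 7 libraries. Nr4a1 was at 2639 and 976 CPM in T-bet+ cDC2s, at 1052 and 1779 CPM in T-bet- cDC2s and at 1694, 477 and 1337 CPM in cDC1s, so all 3 groups overlapped. Nr4a2 was at 128 and 70.4 CPM in T-bet+ cDC2s, at 44.1 and 107 CPM in T-bet- cDC2s and at 103, 49.5 and 123 CPM in cDC1s, again with overlap of all groups. Nr4a3 was at 67.9 CPM in each T-bet+ library, at 60.6 and 128 CPM in T-bet- cDC2s and at 49.0, 32.7 and 50.7 CPM in cDC1s, where every cDC2 library lay above every cDC1 library. None of the 3 members passed edgeR's test in an MLN comparison without a block. With the numbers in the library names as a block, Nr4a1 (0.83, adjusted p = 0.0428) and Nr4a3 (1.11, adjusted p = 0.0196) passed in T-bet- cDC2s over cDC1s and Nr4a3 (0.85, adjusted p = 0.046) in T-bet+ cDC2s over cDC1s. Between T-bet+ and T-bet- cDC2s no gene of 15298 passed in edgeR (0%), although 1444 had an unadjusted p under 0.05. DESeq2 called 102 higher and 226 lower, and the block on library-name numbers gave 13 higher and 117 lower in edgeR, none of them a family member. The log2 fold changes there were 0.32 (SE 0.67) for Nr4a1, 0.36 (SE 0.54) for Nr4a2 and -0.49 (SE 0.38) for Nr4a3. The largest difference was that of Nr4a3 between T-bet- cDC2s and cDC1s (1.14, SE 0.34, adjusted p = 0.101), in a comparison in which 5.79% of genes passed. Between T-bet+ cDC2s and cDC1s, in which 6.22% passed, the 3 log2 fold changes were 0.13 to 0.65 and the adjusted p 0.314 to 0.907.

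Between the tissues, Nr4a2 and Nr4a3 were higher in spleen than in MLN in T-bet+ cDC2s and in cDC1s. In T-bet+ cDC2s the fold was 8.37 for Nr4a2 (log2 fold change 3.07, SE 0.71, adjusted p = 0.0269, edgeR) and 6.56 for Nr4a3 (2.71, SE 0.48, adjusted p = 0.00824), where 5.09% of 16795 genes passed. In cDC1s it was 5.19 for Nr4a2 (2.37, SE 0.58, adjusted p = 0.0204) and 3.94 for Nr4a3 (1.98, SE 0.40, adjusted p = 0.00796), where 11.7% passed. In T-bet- cDC2s, where 5.95% passed, no member did, with log2 fold changes of 1.33 (SE 0.50) for Nr4a1, 1.08 (SE 0.64) for Nr4a2 and 0.94 (SE 0.44) for Nr4a3. Nr4a1 was higher in spleen by 1.37 (SE 0.50, adjusted p = 0.107) in T-bet+ cDC2s and by 0.88 (SE 0.43, adjusted p = 0.18) in cDC1s, and did not pass. Its T-bet+ libraries in spleen lay above the MLN libraries, which ended at 2639 CPM.

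Every MLN library and 3 of 9 spleen libraries were in the lower GC class, so class and tissue overlap. In T-bet+ cDC2s they coincide fully, as every spleen library of that subset was in the higher class. Values of T-bet+ cDC2s with the class as a term thus rest on the class effect seen in the spleen T-bet- cDC2s and cDC1s. With the class as a term, the spleen-over-MLN log2 fold change of Nr4a2 was smaller, at 1.37 in T-bet+ cDC2s (adjusted p = 0.362) and 0.99 in cDC1s (adjusted p = 0.251). That of Nr4a3 stayed near its size without the class, at 2.45 (adjusted p = 0.14) and 1.76 (adjusted p = 0.0731). None of the 4 passed with the class as a term. Leaving out MLN T-bet+ replicate 2 ended both T-bet+ calls (adjusted p = 0.352 for Nr4a2 and 0.136 for Nr4a3). The Nr4a2 call in T-bet+ cDC2s was also lost without spleen T-bet+ replicate 1 or 2, and that in cDC1s without MLN cDC1 replicate 2 or 3 or spleen cDC1 replicate 1 or 2. The Nr4a3 call in cDC1s was kept in all 16 such fits. Tissue and any difference in how the tissues were handled cannot be told apart.

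Whether a subset difference itself differed between spleen and MLN was tested as an interaction over all 16 libraries. For T-bet+ over T-bet- cDC2s the spleen value exceeded that of MLN by 1.99 (SE 0.88, unadjusted p = 0.0411 in edgeR's fit) for Nr4a2 and by 1.78 (SE 0.61, unadjusted p = 0.0111 in edgeR's fit) for Nr4a3 on the log2 scale, with an adjusted p of 0.949 for each. For Nr4a1 it was 0.04 (SE 0.67). No member passed in any of the 3 interaction contrasts, in which 0.00595%, 0.0893% and 0.0357% of genes passed, so a different course of the family in the tissues was not shown.

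**Figure D2:**
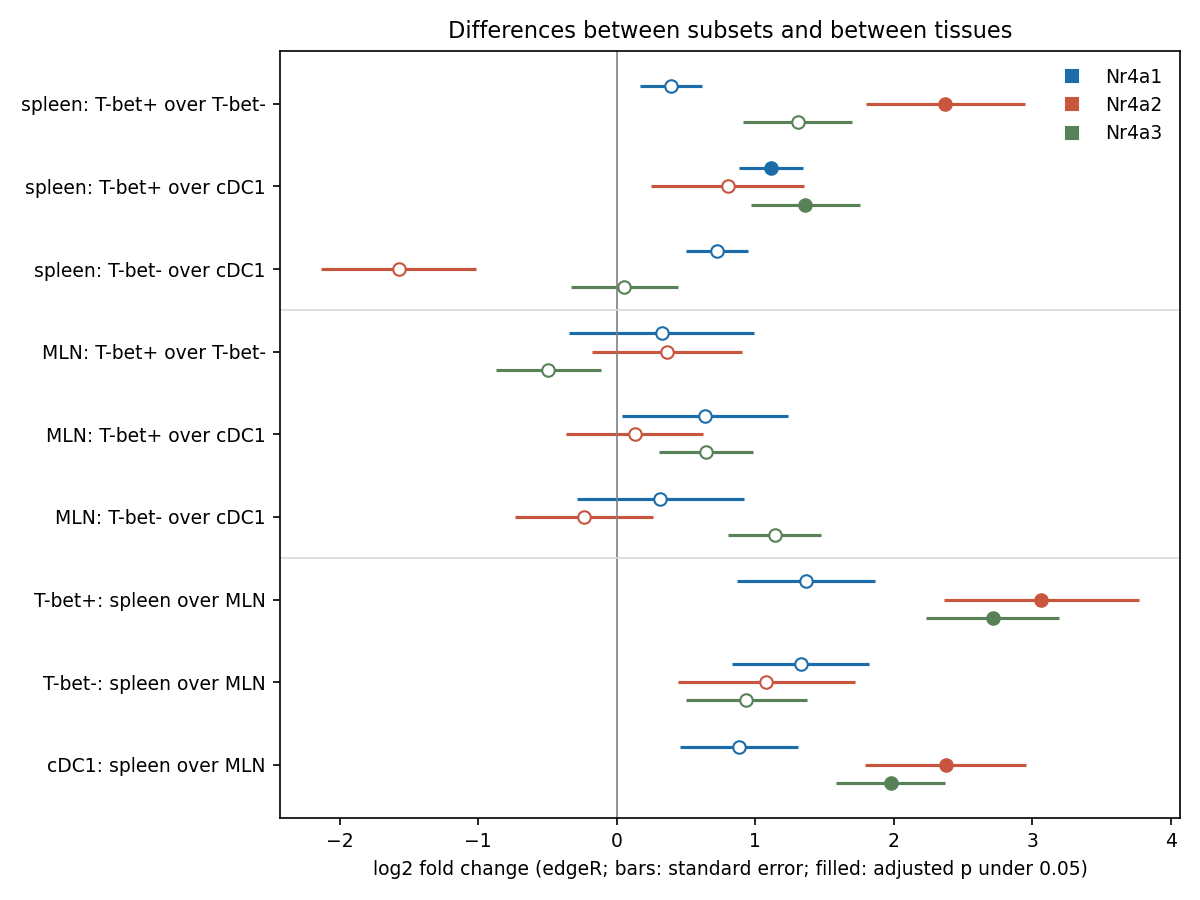
Log2 fold change of each family member in 6 subset comparisons and 3 tissue comparisons, with standard error bars from edgeR. Filled points have an adjusted p under 0.05. The called values are Nr4a2 between the spleen cDC2 subsets (2.37), Nr4a1 and Nr4a3 between spleen T-bet+ cDC2s and cDC1s (1.11 and 1.36), and Nr4a2 and Nr4a3 between tissues in T-bet+ cDC2s and cDC1s.

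Of 26 other immediate early and stress response genes, 2 rose in spleen T-bet+ over T-bet- cDC2s and none fell, beside 1.95% of all genes higher and 3.44% lower, with a median log2 fold change of 0.56 beside -0.01 over all genes. Egr3, a zinc finger factor induced with the Nr4a genes by calcium signals, was at 71.3, 59.3 and 64.5 CPM in T-bet+ cDC2s and at 14.8, 18.4 and 9.37 CPM in T-bet- cDC2s (2.2, SE 0.29, adjusted p = 0.00255 in edgeR). In cDC1s it was at 50.9, 65.9 and 48.1 CPM, above every T-bet- library, with 2 libraries below the range of the T-bet+ cDC2s and 1 within it. Ppp1r15a, which directs the phosphatase that restarts translation after stress, was at 1028 to 1162 CPM in T-bet+ and 442 to 702 CPM in T-bet- cDC2s (0.91, SE 0.22, adjusted p = 0.0413). With the library class as a term, 1 of the 26 rose and 1 fell, at a median of 0.23, where 241 of 14377 genes rose and 430 fell.

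Against cDC1s, 11 of the 26 rose in T-bet+ cDC2s and none fell, beside 9.97% of all genes higher and 8.2% lower, with a median of 1.32 beside 0.03 over all genes, and 25 of 26 had a positive value. The 11 were Atf3, Btg2, Csrnp1, Fos, Fosl2, Gadd45b, Ier3, Klf4, Maff, Ppp1r15a and Zfp36, with log2 fold changes of 0.86 to 3.13. With the class as a term 20 of the 26 rose, where 1783 of 14377 genes did. Against cDC1s in T-bet- cDC2s, 8 rose and 1, Egr3, fell by 1.95 on the log2 scale (median of the list 0.69), beside 9.65% of all genes higher and 6.2% lower. Fos, which pairs with Jun in the AP-1 factor, was at 3150 to 4281 CPM in T-bet+ cDC2s, 3176 to 3342 CPM in T-bet- cDC2s and 1870 to 2083 CPM in cDC1s, and rose in each cDC2 subset over cDC1s (0.94 and 0.74, adjusted p = 0.00209 and 0.00828).

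Other genes of this list moved with the GC class, as Nr4a2 did. Dusp1, a phosphatase that switches off MAP kinases, was at 1017 to 3488 CPM in the 6 spleen libraries of the higher class and at 82.7 to 309 CPM in the 3 of the lower (-3.63, SE 0.32, adjusted p = 0.000229 in edgeR). Egr1 was at 167 to 534 CPM in the higher class and 48.7 to 121 CPM in the lower (-2.32, SE 0.31, adjusted p = 0.000678). Fos did not pass (-0.07, adjusted p = 0.834). In all, 8 of the 26 immediate early genes differed between the classes, beside 13.2% of all genes, both in either direction. All 8 were lower in the lower class, and the share of all genes by direction is not given here. The class was itself drawn from these counts, and what sets it was not tested.

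In MLN 0 of the 26 immediate early genes passed between the cDC2 subsets in edgeR, as no gene did, and 1 in DESeq2 (2 at an unadjusted p under 0.05 and a median of -0.39 in edgeR). Egr3 was at 37.9 and 14.0 CPM in T-bet+ and 4.57 and 7.16 CPM in T-bet- cDC2s there (2.11, SE 0.66, adjusted p = 0.38 in edgeR). Over cDC1s 0 of the list passed in T-bet+ cDC2s in edgeR and 2 in DESeq2 (2 at an unadjusted p under 0.05 in edgeR). In T-bet- cDC2s 2 rose over cDC1s, Fosl2 (2.47) and Klf4 (2.12), beside 4.34% of all genes higher and 1.44% lower. From MLN to spleen 3 rose and 0 fell in T-bet+ cDC2s (Fosl2 1.9, Klf4 2.39 and Maff 2.78), 0 rose and 1 fell in T-bet- cDC2s (Gadd45b -1.77), and 3 rose and 4 fell in cDC1s. The shares of all genes higher and lower in spleen were, for the same subsets in that order, 1.3% and 3.79%, 1.59% and 4.36%, and 3.93% and 7.75%. With the class as a term the counts of the list were 0 and 0, 0 and 1, and 1 and 1. Those of all 16795 genes were 21 and 42, 373 and 732, and 217 and 557 in that order.

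Of 26 genes that act on transcription of the family (CREB and its co-activators, protein kinase A, MEF2, calcineurin and NFAT, Srf, Elk1, Klf2 and Cebpb), 25 were tested in spleen, and 0 passed between T-bet+ and T-bet- cDC2s in edgeR or in DESeq2 (1 at an unadjusted p under 0.05 in edgeR, median 0.27). Over cDC1s, Crtc3, a co-activator of CREB, rose in T-bet+ cDC2s (1.72, SE 0.42, adjusted p = 0.0188), as it did in T-bet- cDC2s (1.46, SE 0.42, adjusted p = 0.0422). Mef2c, a calcium-responsive factor, rose in T-bet+ cDC2s (1.25, SE 0.30, adjusted p = 0.0168). In MLN the same 2 genes rose in T-bet+ over cDC1s (Crtc3 1.91, Mef2c 2.65) and Crtc3 in T-bet- cDC2s (2.24). Between tissues, Crem, a cyclic AMP-induced member of the CREB family, was higher in spleen in all 3 subsets, by 1.9 (SE 0.34) in cDC1s, 2.40 (SE 0.40) in T-bet- and 2.05 (SE 0.39) in T-bet+ cDC2s. Klf2, a factor of quiescent cells, was higher in spleen in cDC1s (2.53, SE 0.72) and T-bet+ cDC2s (3.67, SE 0.89). Of the 25, 9 differed between the GC classes of the spleen, beside 13.2% of all genes, both in either direction. All 9 were lower in the lower class. With the class as a term, 2 rose and 0 fell between tissues in cDC1s. In T-bet- cDC2s the counts were 1 and 1, and in T-bet+ cDC2s 0 and 0. Over all 16795 genes tested they were 217 and 557, 373 and 732, and 21 and 42 in the same order.

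Among 13 dimer partners and coregulators, of which 12 were tested in spleen, Rxra was the gene that changed. Rxra, a retinoid X receptor that dimerizes with Nr4a1 and Nr4a2, was at 3.72, 2.55 and 1.70 CPM in T-bet+ cDC2s, at 12.6, 9.71 and 11.3 CPM in T-bet- cDC2s and at 13.7, 13.6 and 14.5 CPM in cDC1s. It was lower in T-bet+ cDC2s than in T-bet- cDC2s (log2 fold change -2.07, SE 0.32, adjusted p = 0.00676 in edgeR) and cDC1s (-2.39, SE 0.33, adjusted p = 0.000877). Each Nr4a gene had its highest spleen mean in T-bet+ cDC2s. The mean of Nr4a2, like that of Rxra, was lower in T-bet- cDC2s than in cDC1s. In MLN no partner passed in edgeR (1 to 3 at an unadjusted p under 0.05 in each comparison, and 1 in DESeq2 between the cDC2 subsets), with Rxra at 2.30 and 5.51 CPM in T-bet+ and 28.3 and 14.1 CPM in T-bet- cDC2s. Ncoa2, a p160 co-activator, was lower in spleen than in MLN in cDC1s (-1.20, SE 0.37) and T-bet- cDC2s (-1.62, SE 0.40).

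Of 46 other nuclear receptors listed, 43 were in the table and 25 were tested in spleen. Between T-bet+ and T-bet- cDC2s 0 rose and 4 fell (median -0.40), beside 1.95% of all genes higher and 3.44% lower. Nr1h3, the oxysterol receptor LXR alpha, was at 5.14 to 7.27 CPM in T-bet+ and 55.8 to 84.9 CPM in T-bet- cDC2s (-3.51, SE 0.44, adjusted p = 0.00215). Pparg, a fatty acid receptor, was at 0.87 to 1.39 CPM and 7.09 to 12.9 CPM (-3.01, SE 0.49, adjusted p = 0.00801). Rxra, described above, also fell. Over cDC1s 4 rose and 1 fell in T-bet+ cDC2s, and 7 rose and 0 fell in T-bet- cDC2s, beside the 9.97% and 8.2% and the 9.65% and 6.2% of all genes given above. Nr4a2 thus rose and Nr1h3, Pparg and Rxra fell in the same comparison.

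Among 11 genes linked to the receptors in leukocytes, 9 were tested in spleen and 0 passed between the cDC2 subsets in edgeR (2 at an unadjusted p under 0.05), with 1 in DESeq2. Ccr7, the chemokine receptor that brings dendritic cells to lymph nodes, was at 4218, 4014 and 4537 CPM in T-bet+ and at 4845, 4495 and 3476 CPM in T-bet- cDC2s (0.00, SE 0.22). In cDC1s it was at 1923, 1250 and 2230 CPM, and it was higher in each cDC2 subset (1.24, SE 0.22, adjusted p = 0.00408 for T-bet+ and 1.25, SE 0.22, adjusted p = 0.00466 for T-bet-). Irf4, a factor of cDC2s, rose in the same way (4.91 and 3.36). In MLN Ccr7 was at 2173 to 9742 CPM over the 7 libraries, and in cDC1s it was lower in spleen than in MLN (-1.95, SE 0.47, adjusted p = 0.0186), where Nr4a2 and Nr4a3 were higher.

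Summed levels of markers of maturation and of other cell types differed between the subsets. The summed level of 8 maturation markers was 13992 to 14866 CPM in spleen T-bet+ cDC2s, 9794 to 10540 in T-bet- cDC2s and 7688 to 8850 in cDC1s, the order of the Nr4a1 levels. Of 7 tested, 1 rose and 1 fell between the cDC2 subsets, beside 1.95% of all genes higher and 3.44% lower. In T-bet+ cDC2s over cDC1s 2 rose and 1 fell, beside 9.97% and 8.2% of all genes. Cd83, an activation marker, made up most of the sum, at 8275 to 10039 CPM in T-bet+ cDC2s, while the chemokine gene Ccl22 was at 12.6 to 14.5 CPM there and at 61.7 to 92.3 CPM in T-bet- cDC2s. In MLN the sums were 6928 to 15346, 14361 to 17783 and 7072 to 18485 CPM, while the Nr4a levels were lower than in spleen. Of 9 macrophage markers 8 fell in T-bet+ against T-bet- cDC2s, where 3.44% of all genes fell. Their sums were 485 to 568, 1197 to 1689 and, in cDC1s, 194 to 278 CPM. The 9 markers of Ly6C-low monocytes, cells that need Nr4a1, summed to 576 to 667, 1135 to 1630 and 409 to 589 CPM. Of these 1 rose and 5 fell between the cDC2 subsets, beside the 1.95% and 3.44% of all genes. The 7 markers of Ly6C-high monocytes summed to 38.5 to 52.0, 199.95 to 419 and 97.1 to 205 CPM. Sums of 8 B cell markers were 277 to 336, 197 to 226 and 124 to 162 CPM, those of 6 plasmacytoid markers 98.6 to 126, 128 to 181 and 99.3 to 127 CPM, and those of 9 T and NK cell markers 1.51 to 3.82, 1.44 to 2.94 and 0.44 to 0.86 CPM, with the B cell factor Pax5 at 0 to 0.051 CPM and the T cell gene Thy1 at 0 to 0.048 CPM. The part of these cells in the Nr4a levels was not tested.

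The genes whose pattern was most like that of a family member were taken over the 16 RNA libraries after the mean of each tissue was subtracted, among 11029 genes. For Nr4a1 the highest Pearson correlations were those of Btg2 (r = 0.95), Rasgef1b (0.92), Fos (0.89), Ndst1 (0.88) and Ppfia4 (0.86). Btg2 and Fos belong to the immediate early genes. For Nr4a2 they were those of Traf4 (0.96), Kif5b (0.95), Hic1 (0.94), Dnajc2 (0.94) and Tomm20 (0.93), and 100 genes had an r of at least 0.87. For Nr4a3 they were those of Pmm1 (0.87), Rilpl2 (0.87), Suz12 (0.84), Kdm6b (0.83) and Sash1 (0.83). Without subtracting the tissue means, the leading genes were again Btg2 for Nr4a1 and Traf4 for Nr4a2, and Rilpl2 for Nr4a3. Between members r was 0.63 for Nr4a1 and Nr4a3, 0.62 for Nr4a2 and Nr4a3 and 0.32 for Nr4a1 and Nr4a2. The points share libraries and their GC class, so these values describe likeness and no more.

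In ATAC-seq of the spleen, Nr4a1 had 15 windows in 6 peaks and Nr4a3 had 6 windows in 4 peaks. No listed window had Nr4a2 as its closest gene within 50000 bases, and the nearest peak lay 30730 bases from a start of Nr4a2. The nearest window (chr2:57154804-57154953), whose closest annotated gene was BB557941, was at 3.09 and 4.44 CPM in cDC1s and at 0.22 to 0.51 CPM in the 4 cDC2 libraries. Of 1604 genes with a mean of 100 to 1000 CPM, 71.4% had a peak within 2000 bases of a start, and of 101 genes above 1000 CPM 72.3% had one. Nr4a1 had a peak over its upstream start, none over its RefSeq start, and Nr4a3 had its nearest peak 1397 bases before its start. Of the 21 windows 20 were tested. Calls required a log2 fold change beyond 0.5 in either direction and an adjusted p under 0.01.

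The windows that carry these differences are printed on the plus strand of GRCm38, each 150 bases long. The first 3 lie in an intron of Nr4a1, 1985, 2169 and 2747 bases after the upstream start and at positions -10592, -10408 and -9830 from the RefSeq start, at chr15:101256180-101256329, chr15:101256364-101256513 and chr15:101256942-101257091. The others lie before Nr4a3, outside the gene, at position -22025 from its RefSeq start (chr4:48023206-48023355), at -2359 (chr4:48042872-48043021) and at -1839 (chr4:48043392-48043541). Capitals mark TGACG or CGTCA, and AGGTCA, the core of the receptors' own element. The first 2 and the far window hold none of them.
Nr4a1 intron, first window: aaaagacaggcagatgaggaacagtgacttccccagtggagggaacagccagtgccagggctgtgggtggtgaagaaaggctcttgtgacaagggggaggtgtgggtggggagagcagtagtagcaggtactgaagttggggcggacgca
Nr4a1 intron, next window: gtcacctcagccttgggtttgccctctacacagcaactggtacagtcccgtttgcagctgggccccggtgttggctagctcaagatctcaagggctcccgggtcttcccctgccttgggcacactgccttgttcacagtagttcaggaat
Nr4a1 intron, last window: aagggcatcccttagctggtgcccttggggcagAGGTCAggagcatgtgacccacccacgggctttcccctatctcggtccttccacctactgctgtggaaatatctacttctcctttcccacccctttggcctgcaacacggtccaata
Nr4a3 far upstream: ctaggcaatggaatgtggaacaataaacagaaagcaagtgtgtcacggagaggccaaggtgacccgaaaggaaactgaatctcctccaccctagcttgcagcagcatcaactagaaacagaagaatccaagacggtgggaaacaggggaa
Nr4a3 near upstream, first window: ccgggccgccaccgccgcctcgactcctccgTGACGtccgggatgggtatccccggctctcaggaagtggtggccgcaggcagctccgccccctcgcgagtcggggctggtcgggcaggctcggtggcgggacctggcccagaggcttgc
Nr4a3 near upstream, last window: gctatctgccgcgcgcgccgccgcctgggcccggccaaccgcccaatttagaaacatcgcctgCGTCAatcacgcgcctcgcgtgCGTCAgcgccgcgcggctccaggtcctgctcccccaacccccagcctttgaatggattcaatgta

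The 3 intron windows of Nr4a1 were more accessible in T-bet+ cDC2s. The first was at 26.7 and 23.0 CPM in T-bet+ cDC2s, 11.6 and 13.4 CPM in T-bet- cDC2s and 15.1 and 14.6 CPM in cDC1s. The next was at 14.7 and 13.4 CPM in T-bet+ cDC2s and at 6.38 to 7.64 CPM in the other 4 libraries. The last was at 20.7 and 21.5 CPM in T-bet+ cDC2s and at 10.5 to 13.1 CPM in the others. In each the 2 T-bet+ libraries lay above all others. Over T-bet- cDC2s the log2 fold changes were 0.99 (adjusted p = 0.000335), 1.01 (adjusted p = 0.00325) and 0.94 (adjusted p = 0.00118) in edgeR, where 3.92% of 166547 windows were called higher and 2.36% lower. Over cDC1s they were 0.74, 1.09 and 0.69 (adjusted p = 0.00291, 0.000434 and 0.00783), where 11.0% were called higher and 12.0% lower. Over cDC1s, the calls of the first and last window were each lost when any of 3 or 4 libraries was left out, T-bet+ replicate 1 and each cDC1 library among them, and in DESeq2, with log2 fold changes of 0.64 to 0.77. Between T-bet- cDC2s and cDC1s the 3 windows were not called (-0.25, 0.08 and -0.24).

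The other Nr4a1 windows mostly leaned the same way without being called. Over T-bet- cDC2s 13 of the 15 had a positive value, with a median of 0.65 beside -0.01 over all windows. The window at position -122 from the upstream start (chr15:101254073-101254222) was at 33.1 and 23.3 CPM in T-bet+ cDC2s, 24.0 and 20.4 CPM in T-bet- cDC2s and 26.0 and 22.3 CPM in cDC1s (0.34, adjusted p = 0.268). It holds 2 copies of CGTCA and a MEF2 motif. TGACG or CGTCA, in any number of copies, was in 7.75% of windows, and a MEF2 motif in 1.26%. The 6 windows past the end of the gene had values of 0.61 to 1.02 over T-bet- cDC2s, of which none passed (adjusted p = 0.0215 to 0.314). Over whole peaks, 4 of the 6 Nr4a1 peaks were called higher in T-bet+ cDC2s over the T-bet- subset, among them the peak at the upstream start (0.69) and the peak past the end of the gene (0.69). Of all 73293 peaks tested, 7.26% were called higher and 5.69% lower there. The number of called windows depended on the library left out, from 0 without T-bet- replicate 1 and 1 without T-bet- replicate 2 to 2 without T-bet+ replicate 1 and 6 without T-bet+ replicate 2. Nr4a1 RNA in spleen, at 0.39 on the log2 scale and 0.11 to 0.55 when a library was left out, did not pass in the same comparison.

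At Nr4a3 windows were called between cDC2s and cDC1s. Between T-bet+ and T-bet- cDC2s none of the 5 tested with Nr4a3 as closest gene was called, with a median of 0.15. Some windows within 50000 bases but closest to Gm12434 or Stx17 were called higher in T-bet+ cDC2s in edgeR. They were chr4:48012350-48012499 (2.11, adjusted p = 0.000925), chr4:48131704-48131853 (1.53, adjusted p = 1.14e-05) and chr4:48132332-48132481 (2.04, adjusted p = 0.00143). Of 69 windows tested within 50000 bases of a member, 7 were higher and 0 lower in that comparison, beside 3.92% and 2.36% of all windows. The first near upstream window was at 73.6 and 71.4 CPM in T-bet+ cDC2s, 69.8 and 61.2 CPM in T-bet- cDC2s and 32.2 and 28.3 CPM in cDC1s (1.26 and 1.11 over cDC1s). The 2 further windows of that peak had values of 0.85 and 0.91 in T-bet+ and 0.89 and 0.88 in T-bet- cDC2s over cDC1s, and all were called higher. The far window was at 8.20 and 11.2 CPM in cDC1s and at 0.40 to 0.98 CPM in the 4 cDC2 libraries (-3.58 and -4.08), and was called lower in each cDC2 subset. A window between them (chr4:48034459-48034608) was at 2.49 and 2.48 CPM in cDC1s and was called lower in T-bet- cDC2s (-2.46, adjusted p = 0.000828) but not in T-bet+ cDC2s (-1.14, adjusted p = 0.0741). The former call was lost without T-bet- replicate 1 (-2.01) or cDC1 replicate 1 (-2.45). In T-bet- cDC2s over cDC1s 7.32% of all windows were called higher and 10.6% lower. The window in the first exon of the longer Nr4a1 transcript was also called lower there (-0.92, adjusted p = 0.00933), at 5.30 and 4.86 CPM against 9.15 and 10.1 CPM, and that call was lost without any 1 of these 4 libraries (-0.98 to -0.84). The Nr4a3 RNA of T-bet- cDC2s and cDC1s differed by 0.06 on the log2 scale.

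**Figure D3:**
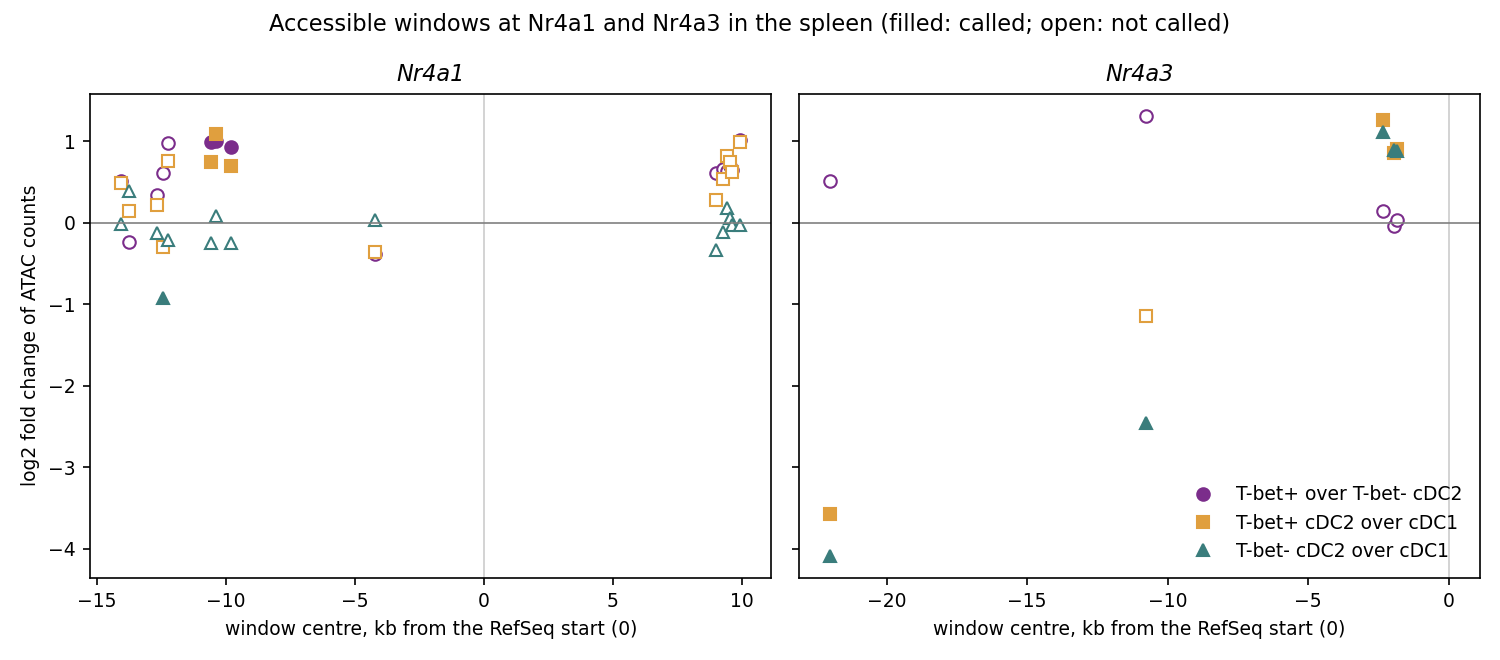
Log2 fold change of ATAC counts for the 20 tested windows at Nr4a1 and Nr4a3, by distance of the window centre from the RefSeq start in kilobases. Symbols mark the 3 comparisons and are filled where the window was called. The 3 windows between -10592 and -9830 bases from the Nr4a1 start were called higher in T-bet+ cDC2s over each other subset, and at Nr4a3 3 windows were called higher in each cDC2 subset over cDC1s.

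The response element of the receptors, AAAGGTCA on either strand, was in 1798 of 177956 windows (1.01%), of which 1704 were tested. Against cDC1s, 15.8% of them were called higher in T-bet+ cDC2s and 13.2% lower, beside 11.0% and 12.0% of all windows. In T-bet- cDC2s over cDC1s, 10.2% were called higher and 14.0% lower, beside 7.32% and 10.6%. Between T-bet+ and T-bet- cDC2s the shares were 9.15% and 3.11%, beside 3.92% and 2.36%, with a median log2 fold change of 0.10 beside -0.01. The shorter core AGGTCA, which many nuclear receptors bind and which was in 9.98% of windows, gave 5.00% and 3.15% in that comparison. Without windows that also hold a Runx or T-box motif, chosen after seeing the data, the full element gave 8.61% and 3.14%. The element's windows took 0.967% and 0.944% of window reads in the T-bet+ cDC2 libraries, 0.860% and 0.894% in the T-bet- cDC2 libraries and 0.938% and 0.973% in cDC1s, so T-bet+ cDC2s and cDC1s overlapped and T-bet- cDC2s lay below. Other factors bind the same letters and windows are not replicates, so no test was made.

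**Figure D4:**
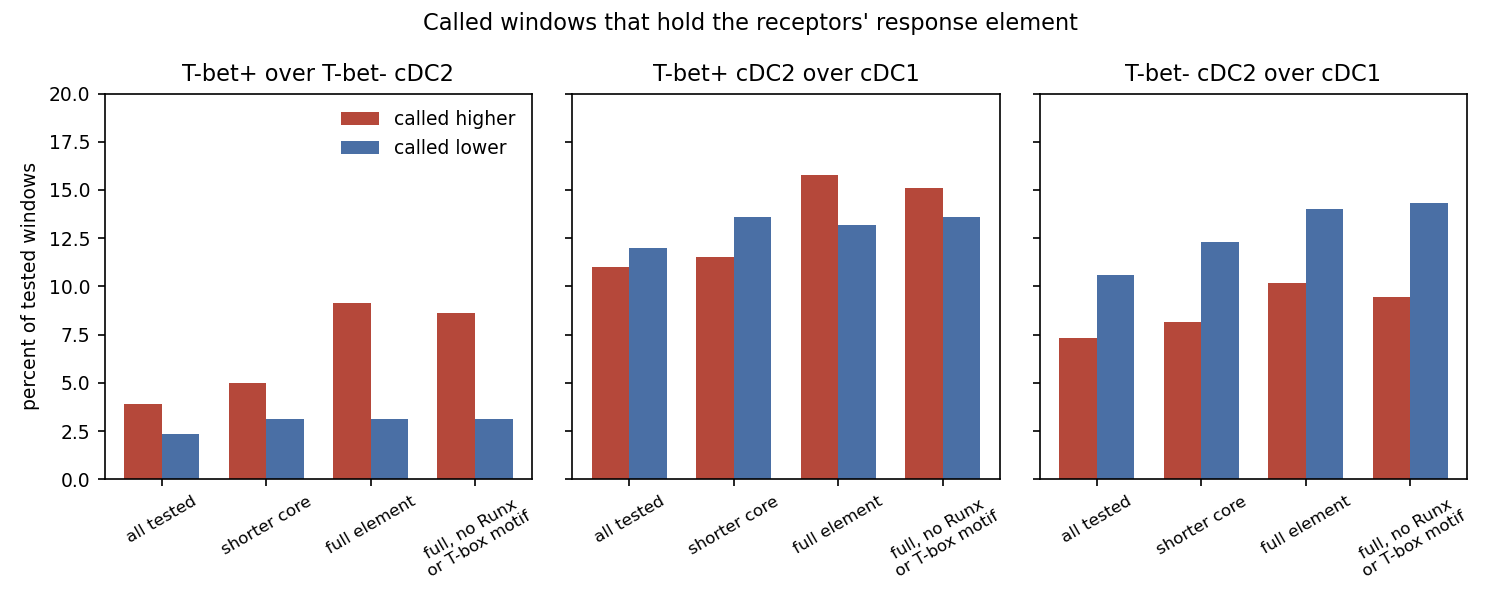
Share of tested windows called higher (red) or lower (blue) in each of the 3 comparisons, for all windows, windows with the shorter core AGGTCA, windows with the full element AAAGGTCA, and the last without Runx or T-box motifs. The share called higher in T-bet+ over T-bet- cDC2s is 9.15% for the full element and 3.92% for all windows.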

How the data were processed

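RNA-seq counts per gene symbol and ATAC-seq counts per 150-base window around peak summits and per peak were used as deposited by the authors, with peak starts and ends from deposited BED positions. Per the labels and methods, RNA reads were aligned with HISAT2 2.1.0 to mm10 and counted with Rsubread on GENCODE genes. Whether counting used strand is not given in the sources used here. ATAC reads were aligned with Bowtie2 2.2.5 and shifted by +4 and -5 bases, and peaks were called on all replicates together with MACS2 2.1.1.20160309. A sentence of the methods gives the opposite RFP sign for each cDC2 subset, and the labels were followed. Peaks called on pooled replicates leave replicates comparable only through their counts.

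Counts were tested with edgeR 4.0.16 in R 4.3.3 (filterByExpr, TMM, quasi-likelihood F test, Benjamini-Hochberg adjustment over all features). RNA calls had an adjusted p under 0.05. ATAC calls required a log2 fold change beyond 0.5 in either direction and an adjusted p under 0.01. The fits had 6 residual degrees of freedom in spleen, 4 in MLN, 10 over both tissues and 3 in ATAC, and standard errors are the log2 fold change divided by the square root of F. CPM (counts scaled to 1 common total) used TMM library sizes and RPKM the union of exons of GENCODE M21, which held 19698 of 34047 symbols. DESeq2 1.42.0, other scalings and filters, left-out libraries, replicate blocks and the GC class (Spearman correlation above 0.1 between a library's deviations and the highest GC content in any 100 bases of a transcript) were alternatives. Same-numbered spleen libraries of T-bet+ cDC2s and cDC1s deviated together (r of 0.168 to 0.339 over the 3 pairs), which the data show and the labels do not state. The replicate block changed no call of a member there. The tests were checked on data with known answers, and no 2 libraries held identical counts.

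The members, gene lists and GC class were chosen with earlier results of these data known. Named were the 3 members, up to 5 called genes of each list by absolute log2 fold change between spleen cDC2 subsets, Ccr7, Fos, Egr1 and Dusp1, the 5 genes most correlated with each member (mean of at least 50 normalized counts, 0.5 CPM added before the log), and windows that were called, at a promoter or of highest mean count. Other list genes are named because they passed a test, after their values were seen, and 1 called gene of a list is not reported here. Antisense or overlapping genes may share reads with those named. Intervals of counting error are small beside the spread, since the lowest count of a member was 753.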

Additional observations from a re-analysis of the deposited data

How the results depend on the processing

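Values are log2 fold changes with edgeR's adjusted p unless stated, and the cause of each change was not tested. Same-numbered spleen libraries of T-bet+ cDC2s and cDC1s deviated together (r of 0.168 to 0.339), and every pair with a T-bet- library had a negative r (-0.663 to -0.00733). In MLN the 5 pairs by library-name number had an r of 0.00929 to 0.61 and same-numbered pairs -0.125 to 0.61, with 2 pairs for T-bet+ cDC2s and cDC1s (0.543 and 0.61). In ATAC-seq r was -0.143 to 0.0840. Elsewhere than between spleen T-bet+ cDC2s and cDC1s the samples were taken to share only a number, although the MLN pairs of these subsets also deviated together. With the block on library-name numbers, calls in MLN T-bet+ cDC2s over cDC1s went from 629 higher and 323 lower to 1272 and 1168. With the replicate block, spleen calls between the cDC2 subsets went from 280 higher and 494 lower to 120 and 236. With it Nr4a2 was 2.28 in spleen T-bet+ over T-bet- (0.143), 0.11 in MLN T-bet- over cDC1, 2.37 between tissues in cDC1s (0.0631) and 2.83 in T-bet+ cDC2s (0.137), and the Nr4a1 interaction of T-bet- over cDC1 was -0.0291. With the numbers of the MLN library names as the block, Nr4a1 was -0.0835 in T-bet+ over T-bet- and 0.83 in T-bet- over cDC1 (0.0428), and Nr4a3 over cDC1 was 0.85 for T-bet+ (0.046) and 1.11 for T-bet- cDC2s (0.0196). That block gave 13 higher and 117 lower calls between the MLN cDC2 subsets, where the fit without it gave 0. A block with crossed numbers, added after seeing the data, gave 19 higher and 112 lower calls between the MLN cDC2 subsets and 8126 and 4869 in ATAC-seq.

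DESeq2 gave 1.26 for Nr4a3 in spleen T-bet+ over T-bet- (0.0413), -1.56 for Nr4a2 in T-bet- over cDC1 (0.0301), -0.0217 for the Nr4a1 interaction of the cDC2 subsets (-0.0235 with its size factors in edgeR) and 1 locus window lower in T-bet- over cDC1. With no filter, more calls passed: Nr4a3 1.31 in spleen T-bet+ over T-bet-, Nr4a1 0.71 and Nr4a2 -1.58 in T-bet- over cDC1, Nr4a3 1.13 in MLN T-bet- over cDC1, Nr4a1 0.89, 1.29 and 1.35 and Nr4a2 1.05 (T-bet-) between tissues, and interactions of the cDC2 subsets of 2.00 for Nr4a2 (0.00977) and 1.79 for Nr4a3 (0.0416). With 2 subsets in the fit Nr4a3 was 1.31 (0.0488). With the higher GC class alone, added after seeing the data, Nr4a3 was 1.92 and -0.89 (T-bet- over cDC1) and Nr4a2 -1.26. With the class as a term the tissue values were 0.99 and 1.76 in cDC1s and 1.37 and 2.45 in T-bet+ cDC2s for Nr4a2 and Nr4a3. Within 50000 bases of a member 69 windows were tested, many of them closest to other genes. In T-bet+ over T-bet- cDC2s 7 were higher and 0 lower, beside 3.92% and 2.36% of all windows. Over cDC1s 12 were higher and 7 lower in T-bet+ cDC2s, beside 11.0% and 12.0%, and 6 and 11 in T-bet- cDC2s, beside 7.32% and 10.6%. At an adjusted p of 0.05 without a fold limit 5 of 20 locus windows were higher between cDC2 subsets, where 11208 of 166547 were. Of 9 whole peaks 3 and 1 were higher over cDC1s, where 11977 and 9277 of 73293 were. The shorter core gave 5.00%, 11.5% and 8.15% higher and 12.3% lower.

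Leaving out a library gave, in spleen, 0.11 to 0.55 for Nr4a1, 2.09 to 2.87 for Nr4a2 and 0.99 to 1.64 for Nr4a3 in T-bet+ over T-bet-, 1.03 to 1.52 for Nr4a3 in T-bet+ over cDC1, and 0.55 to 0.91, -2.20 to -1.19 and -0.29 to 0.27 for Nr4a1, Nr4a2 and Nr4a3 in T-bet- over cDC1. In MLN it gave -0.51 to 0.89, -0.12 to 1.12 and -0.91 to 0.12 in T-bet+ over T-bet-, -0.23 to 1.2 (Nr4a1) and -0.34 to 0.51 (Nr4a2) in T-bet+ over cDC1, and -0.0877 to 0.73 and -0.99 to 0.25 in T-bet- over cDC1. Between tissues it gave 2.05 to 2.80 for Nr4a2 in cDC1s and 0.83 to 2.21, 2.71 to 3.51 and 2.55 to 2.84 for the 3 genes in T-bet+ cDC2s. The Nr4a1 interactions ran from -0.47 to 0.91, -0.0664 to 1.31 and -0.0133 to 0.84. Locus windows called higher were 0 to 6 between cDC2 subsets and 3 to 7 in T-bet+ over cDC1, and 1 to 3 were lower in T-bet- over cDC1. In ATAC-seq the library left alone in its subset was assumed to vary like the others, and 2 libraries a subset limit all window results. Of the main results under all alternatives, 489 kept their direction and side of the threshold or stayed within their spread, 29 no longer passed, 22 newly passed, 16 turned in direction and 19 moved.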
